A study of Mus musculus with 6 samples.

Results

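The S100 genes code for small acidic proteins that bind calcium, and 10 members of the family were followed here in TGFβ-treated mouse lung fibroblasts (LFs): S100a1, S100a4, S100a6, S100a8, S100a9, S100a10, S100a11, S100a13, S100a16 and S100b. They were taken by gene symbol, as 10 of the 55364 genes of the count table, and 8 of them were among the 10346 genes with enough reads to be tested. The libraries were 3 of wt LFs and 3 of LFs labelled as a TKS5 knockout. The study describes the second genotype as heterozygous, so it is written here as Tks5+/-. In both groups, primary LFs were exposed to 10 ng/ml TGFβ1 in serum-free medium for 24 h, and no library without TGFβ was analysed here. Per the study's methods, LFs came from C57Bl6/J mice of 8 to 10 weeks and were used at passage 2 to 3, after overnight serum starvation, and the Tks5+/- mice lost exon 11 of 1 copy of Sh3pxd2a, the gene of the podosome scaffold Tks5, in all tissues through Cre driven by the CMV promoter. The labels do not say whether the 3 libraries of a group came from separate mice or cultures, so that p-values measure only the spread between these libraries.

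S100 proteins are mostly dimers that change shape when calcium enters paired EF-hand loops, and in that shape grip other proteins. S100A4, also called fibroblast-specific protein, and S100A6, calcyclin, are abundant in mesenchymal cells. S100A10 and S100A11 bind annexins at membranes, and S100A8 with S100A9 forms calprotectin, an abundant protein of neutrophils and monocytes that is released in inflammation.

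Of the 10 genes, 9 lie on chromosome 3 of GRCm38. The first block, chr3:90511034-90695721, spans 184.7 kb and holds S100a1, S100a13, S100a16, S100a4, S100a6, S100a8 and S100a9. A gap of 2.825 Mb separates it from S100a11 and S100a10 at chr3:93520488-93564643. S100b is on chromosome 10, at chr10:76253853-76261159. RefSeq (GRCm38.p6) gave start windows of 250 bases before and 50 after the start for 9 of the 10 genes. The windows of 4 genes are printed, because S100a6 and S100a11 were called higher in the comparison, S100a8 was called lower, and S100a4, the neighbour of S100a6, was not called there. Capitals mark matches to 7 short motifs, searched on both strands, and no matches overlapped. The core promoter elements were the TATA box, written TATAAA, the box of letters CCAAT, and the GC box, written GGGCGG. The elements of regulated factors were TGANTCA for AP-1, the letters TTGCNNAA for C/EBP proteins, TTCNNNGAA for STAT proteins, and for SMAD proteins the core letters CAGAC.
S100a6, chr3:90612644-90612943, plus strand: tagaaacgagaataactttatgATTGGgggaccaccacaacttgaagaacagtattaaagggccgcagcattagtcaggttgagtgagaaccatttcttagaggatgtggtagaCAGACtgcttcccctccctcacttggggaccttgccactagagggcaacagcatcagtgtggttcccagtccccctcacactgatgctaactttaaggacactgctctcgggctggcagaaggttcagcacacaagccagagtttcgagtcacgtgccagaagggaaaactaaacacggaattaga
S100a4, chr3:90603520-90603819, plus strand: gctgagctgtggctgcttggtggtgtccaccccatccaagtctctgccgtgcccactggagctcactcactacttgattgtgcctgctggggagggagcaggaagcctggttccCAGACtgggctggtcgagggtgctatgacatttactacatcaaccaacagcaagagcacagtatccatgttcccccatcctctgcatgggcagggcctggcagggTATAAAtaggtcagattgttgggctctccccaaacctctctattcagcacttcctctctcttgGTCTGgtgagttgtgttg
S100a11, chr3:93520246-93520545, plus strand: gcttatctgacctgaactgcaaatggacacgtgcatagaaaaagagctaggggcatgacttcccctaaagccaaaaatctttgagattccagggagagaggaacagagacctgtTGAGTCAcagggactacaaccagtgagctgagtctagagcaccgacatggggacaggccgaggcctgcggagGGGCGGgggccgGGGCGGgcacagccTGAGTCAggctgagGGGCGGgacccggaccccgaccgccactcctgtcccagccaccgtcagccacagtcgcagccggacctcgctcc
S100a8, chr3:90668821-90669120, plus strand: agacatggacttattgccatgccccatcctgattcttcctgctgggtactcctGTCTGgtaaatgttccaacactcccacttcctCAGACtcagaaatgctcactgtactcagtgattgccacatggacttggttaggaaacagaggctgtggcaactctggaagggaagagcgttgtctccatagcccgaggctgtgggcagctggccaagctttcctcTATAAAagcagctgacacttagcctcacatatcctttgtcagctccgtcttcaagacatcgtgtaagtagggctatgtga
With the RefSeq start as position 0, the TATAAA of S100a4 began at -31 and that of S100a8 at -30. A TATAAA is held by 13.6% of the 32817 windows of the same length. S100a11 held 3 GC boxes and 2 AP-1 matches, elements found in 35.6% and 7.81% of all windows. S100a6 held a CCAAT on the minus strand and 1 CAGAC, which 37.4% and 49.6% of windows hold. S100a4 and S100a8 each had 2 CAGAC matches, counting both strands. S100a1 and S100a13 are divergent genes whose annotated starts lie 43 bases apart, and neither window held a match. The STAT letters were in no window of the 9 genes, against 8.29% of all windows. The C/EBP letters, in 10.8% of all windows, were in that of S100a9 alone among the 9 genes. A match is a run of letters and no measure of binding.

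The libraries held 1344507 to 2369882 counts in wt LFs and 1979084 to 2329155 counts in Tks5+/- LFs. Fibroblast markers were high in every library, with a summed level of 5147 to 6511 CPM (counts scaled to a common library size) in wt and 5990 to 9208 CPM in Tks5+/- LFs. The 5 smooth muscle markers summed higher in Tks5+/- libraries, to 4782 to 5698 CPM in wt and 6239 to 7124 CPM in Tks5+/- LFs. Markers of several other cell types were present and lower in Tks5+/- libraries. The 20 macrophage and monocyte markers summed to 416 to 2648 CPM in wt and 150 to 169 CPM in Tks5+/- LFs. For 8 endothelial markers the sums were 118 to 146 CPM and 45.6 to 60.4 CPM. The Y-linked Ddx3y (146, 159 and 210 counts in wt, 25, 19 and 21 in Tks5+/-) and the substrain gene Nnt also fell (log2 fold changes -2.84 and -1.56 to -1.58), whereas the Y-linked Eif2s3y was not called (14, 13 and 35 counts in wt, 26, 7 and 13 in Tks5+/-, log2 fold change -0.23, adjusted p = 0.688, edgeR). Sh3pxd2a had 205, 190 and 284 counts in wt and 238, 258 and 260 in Tks5+/- libraries. Its log2 fold change was 0.29 (adjusted p = 0.249, edgeR). The counts were thus not lower in the libraries labelled Tks5+/-. By Q-RT-PCR, a separate measurement, the study reported reduced Tks5 mRNA in Tks5+/- LFs. Counts over the end of the transcript do not read exon 11 itself, and whether the altered allele yields such reads was not tested, so they do not check the label. Tks5+/- below means the libraries carrying that label. The part of these differences in any S100 value was not tested.

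In the comparison of Tks5+/- with wt LFs, S100a6, S100a10, S100a11 and S100a13 were called higher, with folds of 1.5 to 2.13, and S100a8 was called lower. S100a4, S100a16 and S100a1 did not pass, and S100b and S100a9 had too few reads to be tested. A call is an adjusted p under 0.05 by edgeR's quasi-likelihood test over all 10346 genes with a fold of at least 1.2. Thus 4 of the 8 tested members were higher, where 22.8% of all tested genes were, and 1 was lower, where 22.1% were. The lower member, S100a8, reached the test through its wt libraries alone, so nothing is read from that count. The median log2 fold change was 0.46 over the 8 members and -0.05 over all tested genes. With 3 libraries against 3, the exact two-sided permutation test of the CPM of a single gene cannot go below 0.1. This is its value for the 5 called members. The share of all tested genes whose groups separate in this way was not counted, so separation is not read as particular to the members.

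**Figure D1:**
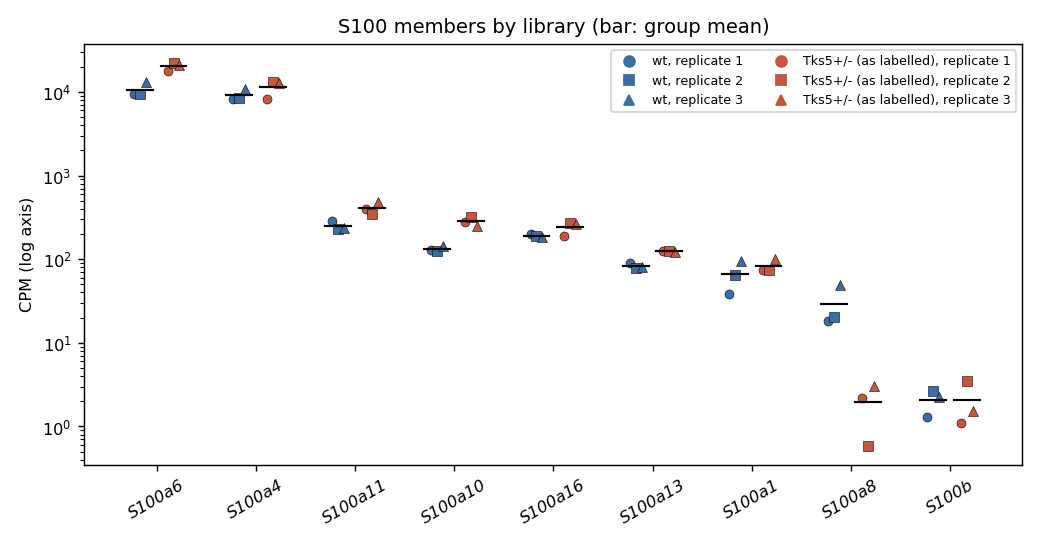
CPM of 9 S100 members on a log axis in the 3 wt libraries (blue) and the 3 libraries labelled Tks5+/- (red), with the symbol giving the replicate and the bar the group mean. The groups do not overlap for S100a6, S100a11, S100a10, S100a13 and S100a8, and overlap for S100a4, S100a16, S100a1 and S100b. The share of all tested genes without overlap was not counted. S100a9, with 0 counts in every library, is not drawn.

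S100a6 had more reads than any other gene in each wt library. Its counts were 14539, 17633 and 35502 in wt and 32573, 37755 and 40520 in Tks5+/- LFs. After scaling these were 9358, 9435 and 13164 CPM in wt against 17874, 22092 and 20736 CPM in Tks5+/- LFs. All Tks5+/- libraries lay above all wt libraries. The mean rose from 10652 ± 2175 to 20234 ± 2153 CPM (SD, n = 3 each), a fold of 1.9 and a log2 fold change of 0.93 (SE 0.22, 95% interval 0.47 to 1.38, adjusted p = 0.00162, edgeR). In Tks5+/- libraries S100a6 came second to Tmsb4x, the actin monomer binding thymosin β4, which took 0.524% to 0.644% of counts in wt and 2.77% to 3.31% in Tks5+/- LFs. As a share of all counts, S100a6 was 1.08%, 1.07% and 1.5% in wt, and 1.65%, 1.79% and 1.74% in Tks5+/- LFs.

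S100a4 codes for a regulator of non-muscle myosin and of cell movement. It had 12765, 15595 and 29031 counts in wt and 15133, 22404 and 25105 in Tks5+/- LFs. The scaled levels were 8216, 8345 and 10764 CPM in wt and 8304, 13110 and 12847 CPM in Tks5+/- LFs. The first Tks5+/- library lay within the wt range and the others above it. The means were 9108 ± 1436 and 11420 ± 2702 CPM (SD, n = 3 each), with a log2 fold change of 0.33 (SE 0.23, 95% interval -0.14 to 0.80, adjusted p = 0.250, edgeR). Without that library the log2 fold change was 0.57 (adjusted p = 0.0247, edgeR), so 1 library decided the call. S100a4 reads are not separable from those of Gm42674, a gene model that overlaps it by 2115 bases on the same strand. Gm42674 had 12824, 15652 and 29159 counts in wt and 15300, 22726 and 25221 in Tks5+/- LFs, 57 to 322 more than S100a4 in each library, and a log2 fold change of 0.33 (adjusted p = 0.238, edgeR).

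S100a6 passed the test and its neighbour S100a4 did not, which by itself does not show that they differed. The ratio of their counts within a library does not depend on the scaling. S100a4 had 87.8%, 88.4% and 81.8% as many counts as S100a6 in wt LFs. In Tks5+/- LFs it had 46.5%, 59.3% and 62.0% as many. The groups did not overlap, and the log2 ratio fell by 0.63, with an exact two-sided permutation p of 0.1, the smallest possible, and 0.3 after Benjamini-Hochberg adjustment over the 6 ratios to S100a6 computed. These ratios were chosen after the values were seen. Counts were not divided by transcript length, so a ratio compares libraries and not the number of molecules of the 2 genes. S100a16 relative to S100a6 also did not overlap between groups (2.11%, 2.02% and 1.39% in wt, 1.07%, 1.22% and 1.28% in Tks5+/- LFs, p = 0.1 by the exact permutation test). The ratios of S100a10, S100a11, S100a13 and S100a1 overlapped, with exact permutation p of 0.2 to 0.4.

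S100a10 and S100a11 are the annexin-binding members and occupy the second block of chromosome 3. S100a10 codes for p11, the partner of annexin A2 and of the plasminogen system at the cell surface. It had 198, 237 and 390 counts in wt and 509, 550 and 487 in Tks5+/- LFs, or 127, 127 and 145 CPM against 279, 322 and 249 CPM. No Tks5+/- library came near the wt range. The mean rose from 133 ± 10.1 to 284 ± 36.5 CPM (SD, n = 3 each), a fold of 2.13 and the largest rise among the members (log2 fold change 1.09, SE 0.20, 95% interval 0.67 to 1.51, adjusted p = 1.43e-04, edgeR).

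S100a11 codes for calgizzarin, a ligand of annexin A1 and annexin A2 with a part in membrane repair. Its counts of 442, 432 and 643 in wt and 733, 600 and 952 in Tks5+/- LFs gave 285, 231 and 238 CPM against 402, 351 and 487 CPM. The groups did not overlap, and the mean rose from 251 ± 28.9 to 414 ± 68.7 CPM (SD, n = 3 each). The log2 fold change was 0.72 (SE 0.21, 95% interval 0.30 to 1.14, adjusted p = 0.00655, edgeR).

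Further members of the first block were expressed at intermediate levels. S100a13 codes for a protein of the copper-dependent release of FGF1 and interleukin 1α. It had 140, 148 and 215 counts in wt and 227, 217 and 237 in Tks5+/- LFs, or 90.1, 79.2 and 79.7 CPM against 125, 127 and 121 CPM. These narrow groups did not overlap. The mean rose from 83.0 ± 6.16 to 124 ± 2.86 CPM (SD, n = 3 each), with a log2 fold change of 0.58 (SE 0.20, 95% interval 0.17 to 1.00, adjusted p = 0.0204, edgeR). The call was lost without the second wt library (0.55, adjusted p = 0.0976, edgeR) and without the third (0.55, adjusted p = 0.0624, edgeR).

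S100a16, a widely expressed member, had 307, 357 and 495 counts in wt and 348, 460 and 520 in Tks5+/- LFs. The levels were 198, 191 and 184 CPM against 191, 269 and 266 CPM, and the first Tks5+/- library lay within the wt range. The log2 fold change was 0.34 (SE 0.20, 95% interval -0.08 to 0.77, adjusted p = 0.174, edgeR), and it was 0.54 without that library (adjusted p = 0.0338, edgeR).

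S100a1, known as a regulator of calcium cycling in striated muscle, shares its start region with S100a13. It had 60, 120 and 258 counts in wt and 137, 127 and 199 in Tks5+/- LFs, or 38.6, 64.2 and 95.7 CPM against 75.2, 74.3 and 102 CPM. The wt libraries were the more spread, and the groups overlapped. The log2 fold change of 0.32 did not pass (SE 0.26, 95% interval -0.22 to 0.87, adjusted p = 0.330, edgeR). Without the third wt library it was 0.69 (adjusted p = 0.0407, edgeR).

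S100a8 was the member that fell. It had 28, 38 and 133 counts in wt and 4, 1 and 6 in Tks5+/- LFs. The scaled levels were 18.0, 20.3 and 49.3 CPM in wt and 2.2, 0.585 and 3.07 CPM in Tks5+/- LFs, with every Tks5+/- library far under every wt library. The mean fell from 29.2 ± 17.4 to 1.95 ± 1.26 CPM (SD, n = 3 each), with a log2 fold change of -3.86 (SE 0.51, 95% interval -4.92 to -2.81, adjusted p = 5.37e-06, edgeR). Without the third wt library, the highest, the log2 fold change was -3.23. S100a8 passed the filter on low counts through its wt libraries alone, since none of the Tks5+/- libraries had over 6 counts. Its interval and adjusted p are therefore a description and no separate support for a fall. In bulk libraries, fewer cells of a type and less RNA per cell cannot be told apart. S100a9, the gene of its calprotectin partner, had 0 counts in all 6 libraries, where a count of 0 allows up to 3 counts a library. Anxa11, a broadly expressed annexin gene, was also listed at 0 in all 6, so a 0 in this table need not mean that a transcript was missing. The limit of 3 counts for a count of 0 covers counting error only, whereas the edgeR intervals also take in the spread between these libraries.

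Macrophage and monocyte markers were, as a sum, also lower in Tks5+/- libraries. Their summed level was 490, 416 and 2648 CPM in the wt libraries and 150, 169 and 167 CPM in the Tks5+/- libraries, so the third wt library was highest in both measures. The first wt library had a higher marker sum than the second but less S100a8. Of the 20 markers, 18 had a count in each wt library and 13 to 14 in each Tks5+/- library. Some markers overlapped between the groups, such as C1qc (3, 3 and 59 counts in wt, 10, 11 and 7 in Tks5+/- LFs). Cd14 (9, 10 and 26 against 6, 12 and 10) and C1qa (16, 11 and 129 against 14, 7 and 15) did so too. No count of calls is given for this list, because markers such as Itgax (25, 22 and 96 counts in wt, 0, 0 and 1 in Tks5+/- LFs) reached the test through their wt libraries alone. Lyz2, lysozyme of myeloid cells, had 298, 337 and 3502 counts in wt and 139, 157 and 207 in Tks5+/- LFs and was not called (-2.61, adjusted p = 0.110, edgeR). Adgre1, which codes for the macrophage antigen F4/80, had 7, 10 and 34 counts in wt and 0 in every Tks5+/- library. Ly6c2 and Ccr2, markers of inflammatory monocytes, were at 0 counts throughout.

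Neutrophil markers other than Mmp8 were near 0, with a summed level of 0.512 to 2.60 CPM over the 6 libraries and with Elane, Csf3r, Retnlg and Ltf at 0 counts. Mmp8, a collagenase, had 214, 308 and 290 counts in wt and 18, 21 and 25 in Tks5+/- LFs (log2 fold change -3.54, adjusted p = 1.76e-09, edgeR). The part of macrophages and monocytes in the S100a8 result was not tested.

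**Figure D2:**
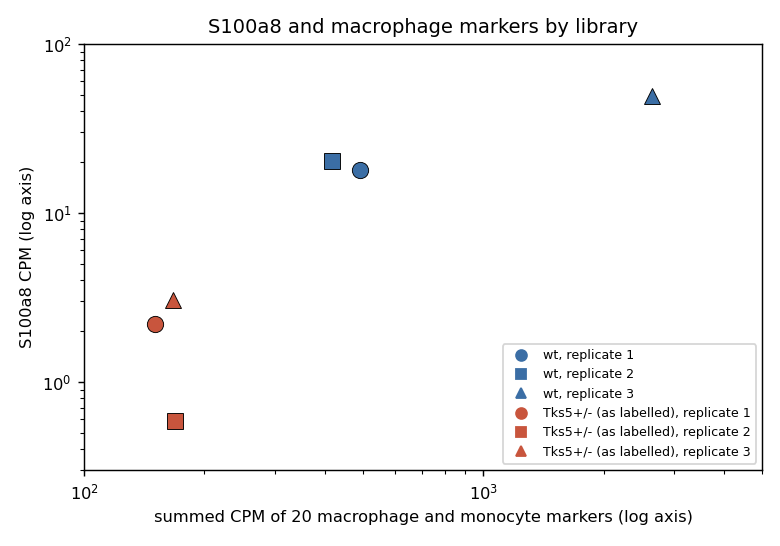
S100a8 CPM against the summed CPM of 20 macrophage and monocyte markers, both on log axes, with a point for each library (wt blue, labelled Tks5+/- red, symbol by replicate). The 3 Tks5+/- libraries sit at 150 to 169 CPM of markers with 0.585 to 3.07 CPM of S100a8, and the third wt library sits highest on both axes, at 2648 and 49.3 CPM.

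S100b, the glial and Schwann cell member, was at the limit of detection, with 2, 5 and 6 counts in wt and 2, 6 and 3 in Tks5+/- LFs, and a difference was not detectable at this depth. Its span overlaps Dip2a on the opposite strand by 1731 bases, and whether the counting used strand is not given in the sources used here. Of the S100 genes outside the 10, 7 were in the table and S100a7a alone had enough reads to be tested. S100a7a, a mouse relative of the psoriasin genes of skin, had 8, 5 and 27 counts in wt and 3, 483 and 2 in Tks5+/- LFs. The second Tks5+/- library decided the value: the log2 fold change was 3.88 with it (adjusted p = 0.257, edgeR) and -2.15 without it. Without that library the gene reached the test through its wt libraries alone, so no p-value is given for that fit. S100a14 and S100g had at most 4 counts in any library, S100a2 and S100a3 at most 3, S100a5 at most 2, and S100z was at 0 counts.

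The rises of the 4 members were of the size common to short transcripts in this comparison. The 8 tested members have longest annotated transcripts of 498 to 1127 bases, with a median of 681, against a median of 3204 bases over all tested genes. Across the 10339 tested genes with a length, log2 fold change and length had a Spearman rho of -0.40, a description across genes that share the same libraries. Among genes over 600 and up to 800 bases the median log2 fold change was 0.84 (n = 231) and 56.3% were called higher, and among genes up to 600 bases it was 0.88 (n = 571) with 56.4% called higher. Over 5000 bases the median was -0.52. S100a10 stood above 62.3% of the genes of its length class and S100a6 above 55.0%. S100a16 stood above 45.3% of its class, S100a11 above 42.2%, S100a13 above 39.4%, S100a1 above 28.1% and S100a4 above 28.0%. S100a8 stood above 0.175% of its class, where the median rose.

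**Figure D3:**
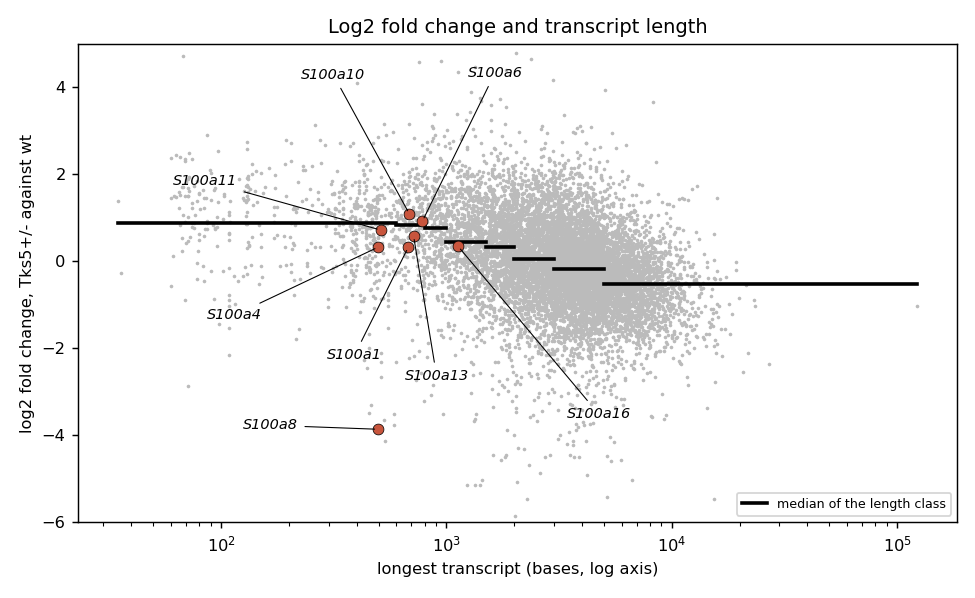
Log2 fold change of Tks5+/- against wt (vertical axis, cut at -6 and 5, with 6 genes outside) against the longest annotated transcript in bases (log axis) for 10339 tested genes (grey). Black lines give the median of each length class, and red points are the 8 tested S100 members. All but S100a8 lie within the cloud of short genes, whose median is 0.84 to 0.88 up to 800 bases.

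When an offset for transcript length was fitted within each library, 0 members were called higher, where 21% of all tested genes were, and 1 was lower, where 17.9% were. The log2 fold change of S100a10 became 0.47 (adjusted p = 0.0581) and that of S100a6 became 0.34 (adjusted p = 0.188, both edgeR). S100a11 came to 0.01 (adjusted p = 0.985) and S100a13 to -0.03 (adjusted p = 0.933, both edgeR). S100a4 moved to -0.41 (adjusted p = 0.125, edgeR). S100a8 was at -4.55 under this offset, a value that rests on the same few Tks5+/- reads. Scaling by library totals moved the median of all genes to -0.47. Relative to that scale S100a6 was at 0.50 (adjusted p = 0.0348) and S100a10 at 0.67 (adjusted p = 0.00826, both edgeR), still called, whereas S100a11 at 0.30 and S100a13 at 0.16 were not (adjusted p = 0.224 and 0.518, both edgeR), and S100a4, S100a1 and S100a16 changed sign to -0.11, -0.10 and -0.09. Of all calls, 50.8% were higher with TMM scaling and 25.7% with library totals.

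The authors' normalized table gave another outcome for the most abundant members. Every library there holds the same set of sorted values, so a value follows from a gene's rank within its library in that table. That rank need not be the rank by counts: in wt libraries Gm42674 had more counts than S100a4 but stood at 22882 against 32390. S100a6 held the first value, 48444, in each wt library and the second, 32390, in each Tks5+/- library, where Tmsb4x held the first. S100a4 was at 32390 in each wt and 16283 in each Tks5+/- library. On log2 of these values plus 1 the differences were -0.58 for S100a6 and -0.99 for S100a4. Both are steps between fixed values with no spread within a group, so no p-value is given for them.

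**Figure D4:**
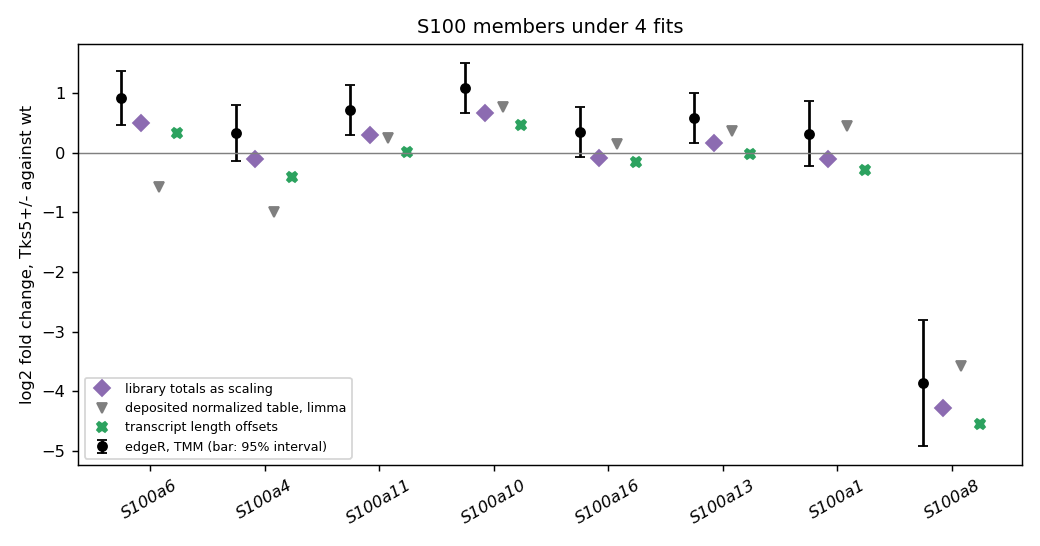
Log2 fold change of Tks5+/- against wt for the 8 tested S100 members under edgeR with TMM scaling (black, bar 95% interval), with library totals as scaling (purple), by limma on the deposited normalized table (grey) and with transcript length offsets (green). S100a8 is the lowest member in all 4 fits, S100a10 lies over 0 in all 4, and S100a6 is at -0.58 in the normalized table alone and over 0 in the others.

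Neighbouring genes on chromosome 3 were read for comparison. Of 92 other genes annotated within 500 kb of a member there, 15 were tested, all of them on the S100a1 side of the first block. Of these, 7 were called higher and 1 lower, where 22.8% and 22.1% of all tested genes were, and their median log2 fold change was 0.55, against -0.05 over all tested genes. The genes share the same libraries, and nothing is read from this count about the neighbourhood. The closest tested gene to the block, Chtop, a factor of mRNA export, was at 0.16 and was not called. Snapin, of the SNARE machinery, and Ilf2, an RNA-binding factor, were higher at 1.53 (adjusted p = 3.59e-06) and 1.5 (adjusted p = 4.69e-06, both edgeR), but they overlap on opposite strands and had near-identical counts, such as 261 and 250 in the third Tks5+/- library. Gatad2b, a subunit of the NuRD complex (-0.07), Crtc2, a CREB coactivator (0.55), and Ints3, of the Integrator complex (-0.59), were not called. Higher and not called genes were mixed among these neighbours. S100a8 near the far end of the block was the sole tested member called lower.

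**Figure D5:**
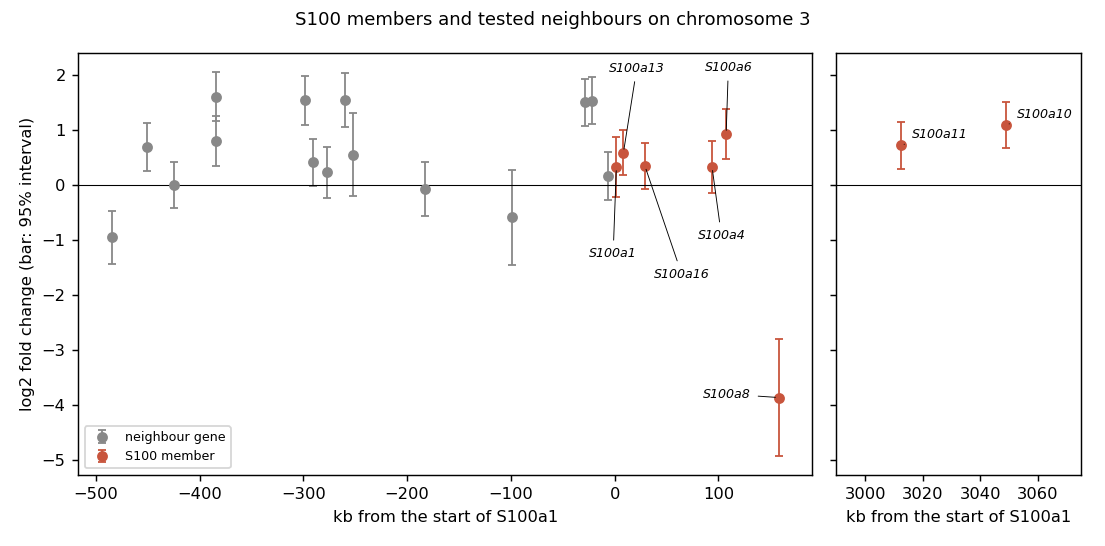
Log2 fold change of Tks5+/- against wt, with 95% intervals, of tested S100 members (red) and the 15 tested neighbour genes (grey) along chromosome 3, by distance in kb of the gene's midpoint from the start of S100a1. The left panel shows the first block and its neighbours and the right panel S100a11 and S100a10. S100a8 lies at -3.86 and all other members between 0.32 and 1.09.

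Known binding partners and receptors of S100 proteins were read from a list of 42 genes. Of 27 tested, 4 were called higher, 7 lower and 16 not called, with a median log2 fold change of -0.25, against 22.8% and 22.1% over all tested genes. Anxa2, which codes for the annexin A2 that S100A10 binds, had 867, 1154 and 1697 counts in wt and 1510, 1908 and 2542 in Tks5+/- LFs. It was higher at 0.85 (adjusted p = 0.00246, edgeR), next to 1.09 for S100a10. Anxa1, the annexin that S100A11 binds, was not called (0.25, adjusted p = 0.457, edgeR). Ahnak and Ahnak2, giant scaffold proteins, the first of which binds the S100A10 and annexin A2 complex, were lower at -1.66 (adjusted p = 3.77e-06) and -2.22 (adjusted p = 2.01e-07, both edgeR). Their longest transcripts are 18100 and 5443 bases.

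Among receptors, Ager, which codes for RAGE, the receptor of several released S100 proteins, had few reads (20, 18 and 35 counts in wt, 68, 103 and 57 in Tks5+/- LFs) and was higher at 1.82 (adjusted p = 4.53e-05, edgeR). Tlr4, the receptor of S100A8 with S100A9, was not called (-0.27, adjusted p = 0.502, edgeR). Bsg, basigin, was higher at 0.57 (adjusted p = 0.0313, edgeR). Of the intracellular targets, Capzb, a subunit of the actin capping protein, was higher at 0.64 (adjusted p = 0.0159, edgeR). Myh9, the non-muscle myosin heavy chain that S100A4 binds, was lower at -0.95 (adjusted p = 0.00104, edgeR). Iqgap1, a scaffold of the actin cortex, was lower at -1.20 (adjusted p = 3.92e-04, edgeR). Mdm2, the ubiquitin ligase of p53, was lower at -1.05 (adjusted p = 0.00225, edgeR). Stub1, a chaperone-associated ubiquitin ligase, was at -1.11 (adjusted p = 2.23e-04, edgeR) and Atp2a2, the calcium pump SERCA2, at -0.60 (adjusted p = 0.0242, edgeR), both lower. The longest transcripts of the lower Myh9, Iqgap1 and Atp2a2 are 7433, 7444 and 5674 bases. Those of the higher Anxa2, Capzb, Ager and Bsg are 2280, 1702, 1876 and 1526 bases, but the lower Stub1 and Mdm2 have 1803 and 3145. With transcript length offsets 9 partner genes were called, beside 11 in the main fit, where 4024 and 4642 of all genes were.

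The genes whose pattern over the 6 libraries was most like that of S100a6 were sought among 8116 tested genes with a mean of at least 20 counts, by the root mean square difference of log2 CPM after each gene was centred. Cnot7, a deadenylase subunit, was closest at 0.0246, followed by Mettl23 at 0.0506 and Srsf2, a splicing factor, at 0.0576. Their log2 fold changes were 0.95, 0.84 and 1.01. Among the members S100a10 was the closest, at 0.168, and S100a8 the farthest, at 2.37.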

How the data were processed

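RNA from the end of polyadenylated transcripts was sequenced (QuantSeq, Ion Torrent) in 3 wt and 3 Tks5+/- LF libraries treated with TGFβ. Per the study's methods and the submitters' processing notes, reads were trimmed (Trim Galore) and mapped to GRCm38 (HISAT2, Bowtie2). The authors counted them over the last untranslated region of each gene (at least 300 bases, plus 50 bases of flank) and deposited whole-number counts summed per gene. Strand use in the counting is not given in the sources used here. The authors also deposited values normalized with EDASeq and rounded, which were used as a score in 1 alternative. No column lacked a sample. Of 55364 genes, 55104 matched the GENCODE annotation of GRCm38, from which coordinates and the longest transcript were taken, and 33644 had no count.

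Counts were tested with edgeR 4.0.16 under R 4.3.3 (TMM scaling after filterByExpr, robust quasi-likelihood F test, all 6 libraries, no replicate block, Benjamini-Hochberg over 10346 genes), with limma 3.58.1 and DESeq2 1.42.0 as alternatives. The study combined several tests, of which 1 count test with its thresholds (0.05 and fold 1.2) was kept. CPM used TMM-scaled totals. The common dispersion was 0.0429. The edgeR, limma-voom, DESeq2 and length-offset fits were tested on simulated counts. Precision at 1344507 to 2369882 counts a library is limited for members under 10 counts. Single genes and ratios were also compared by exact permutation tests (Python 3.11.15, scipy 1.17.1). Length offsets were loess curves of each library's log ratio on transcript length (span 0.5).

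The members, the partner list, the marker lists and the tests were chosen with earlier results of these data known. Named were all members and Gm42674, the other S100 genes, called partners with Anxa1, Anxa2, Ahnak, Ager and Tlr4, the 6 nearest tested neighbours on chromosome 3 and the 3 genes most like S100a6. Sh3pxd2a, Tmsb4x, Dip2a, Ddx3y, Nnt, Mmp8 and the macrophage genes were named as checks, and the ratios to S100a6 and the fit without Gm42674 were chosen after their values were seen. Markers of fibroblasts, neutrophils, macrophages and monocytes, mesothelium, endothelium, epithelium, smooth muscle, Schwann cells, chondrocytes, cardiac muscle, sex and substrain were read as summed CPM. Alternatives were other scalings, filters, tools, offsets, the replicate block and leaving out each library.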

Additional observations from a re-analysis of the deposited data

Results flagged for a closer look

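S100a7a, an S100 gene outside the 10 members, had 483 counts in the second library labelled Tks5+/- and 2 to 27 counts in the other 5, so that a signal in a gene that the member comparison did not use stood above the wt level in 1 library. The difference between the groups was not called (adjusted p = 0.257, edgeR), and no cause was tested.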

How the results depend on the processing

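With transcript length offsets, with length and GC offsets and with the replicate block plus length offsets, 0 members were called higher. Of all 10346 tested genes, 2168, 2117 and 2143 were higher in these fits, in that order. With library totals 2 members were called higher, where 1362 of 10346 genes were higher and 3944 lower. Limma on the normalized table called 1 member higher and 3 lower, where 2207 and 2224 genes were. Among those 3 were S100a4 and S100a6, fixed steps there with no spread within a group, so nothing is read from that count. When at least 10 counts in every library were required, a filter that removes S100a8, 0 members and 1812 of 7906 genes were lower. S100a8, which reached the main test through its wt libraries alone, was lower in the 21 alternatives that tested it (-4.77 to -3.23). Those fits rest on the same few Tks5+/- reads and are no separate support. Changes of sign were as follows. With library totals, Gm42674 was at -0.10, S100a1 at -0.10, S100a16 at -0.087 and S100a4 at -0.11. In the normalized table, Gm42674 was at -0.44, S100a4 at -0.99 and S100a6 at -0.58. With length offsets, Gm42674 was at -0.43, S100a1 at -0.28, S100a13 at -0.025, S100a16 at -0.15 and S100a4 at -0.41. With length and GC offsets, Gm42674 was at -0.43, S100a1 at -0.13, S100a11 at -0.090 and S100a4 at -0.52. With the replicate block and length offsets, Gm42674 was at -0.44, S100a1 at -0.23, S100a11 at -0.0059, S100a13 at -0.023, S100a16 at -0.16 and S100a4 at -0.42. S100a7a was at -2.15 without the second Tks5+/- library and at most 4.59 without any other. For the scalings and offsets the shift follows from their construction, and for the rest the cause was not tested. Of 216 alternative log2 fold changes of S100 genes and Gm42674, 173 kept direction and call, 16 lost the call, 4 gained it and 23 changed sign. The 173 include a fit without the fold threshold, which repeats the main log2 fold changes, and the values of S100a8. They also include genes called in neither fit, so the count is no measure of robustness. Single-library omissions gave 3 to 6 members higher (6 without the first Tks5+/- library), 1 lower, 8 to 11 partner genes, 8 to 9 neighbour genes and 3853 to 4595 genes called in all, beside 11, 8 and 4642 with all libraries. Of 10683 to 10944 genes tested in such fits, 2007 to 2477 were higher and 1762 to 2118 lower. S100a6, S100a10 and S100a11 kept their calls in 6 of 6 such fits. For S100a11 the adjusted p without the second wt library was 0.04998 (edgeR), at the threshold. The share of all called genes that kept their calls in these fits was not counted. The replicate block alone gave 4 members higher and 1 lower, with 2360 and 2308 of all genes, and the fit changed no member's call. Deviations of samples of the same number had correlations of -0.001, -0.064 and 0.082. Whether such samples shared a source was not tested. DESeq2, limma-voom and the removal of Gm42674 each gave 4 members higher and 1 lower. Of all genes, 2094, 2320 and 2356 were higher there and 1703, 2259 and 2286 lower. S100b, at 2 to 6 counts a library, was too low to test.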

Other observations

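Markers of cells other than fibroblasts were lower in the libraries labelled Tks5+/- in several lists beside those of macrophages. The summed CPM of the smooth muscle list was higher in those libraries. The 8 mesothelial markers summed to 37.5 to 50.8 CPM in wt and 5.63 to 14.3 CPM in Tks5+/- LFs, and the 9 epithelial markers to 15.0 to 43.0 CPM and 0.549 to 2.93 CPM. Several markers of these lists, and of the endothelial list, reached the test through their wt libraries alone, so no count of calls is given for them. Of 10 fibroblast markers 4 were called higher and 2 lower, and of 5 smooth muscle markers 2 were called higher and 2 lower, where 22.8% and 22.1% of all tested genes were. The 6 Schwann and glial markers summed to 15.6 to 18.0 CPM in wt and 6.59 to 12.9 CPM in Tks5+/- LFs, the 5 chondrocyte markers to 37.5 to 50.3 and 18.1 to 27.6 CPM, and the 5 cardiac muscle markers, none of them tested, to 3.21 to 7.05 and 0.549 to 4.10 CPM. Xist was at 0 counts in every library. The relation of these values to the S100 genes was not tested.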
